A study of Mus musculus with 36 samples.

Results

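The 30 genes described here encode the subunits of the vacuolar proton pump (V-ATPase) and the proteins that work beside it when an osteoclast acidifies the bone surface: carbonic anhydrase 2, the chloride and bicarbonate transporters, the trafficking proteins of the ruffled border and the main lysosome membrane proteins. They were taken by name from the 24950 genes of the deposited expression table, and all 30 were found. Gene expression had been measured by RNA-seq in cultures from C57BL/6 mice that carried the label Irf8 gWT, gKO, cWT or cKO, where Irf8 is the gene of interferon regulatory factor 8, a transcription factor known to restrain osteoclast formation. Per the labels, bone marrow-derived macrophages (BMMs) stood at day 0, preosteoclasts at day 3 and osteoclasts at day 6 of culture with 20 ng/ml M-CSF, the macrophage growth factor, and 40 ng/ml RANKL, the inducer of osteoclast formation. Each of the 4 genotype labels had 3 libraries on each of 3 days, which gave 12 groups and 36 libraries, and cells from mice of both sexes had been used. The labels leave g and c unexplained, name no Cre driver and give no animal for any library, so the p-values below measure the spread between these libraries, which may be technical.

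The V-ATPase is a rotary motor of 2 parts. Its V1 part in the cytosol hydrolyses ATP, and its V0 part in the membrane carries the protons across. Several subunits exist as paralogs, and osteoclasts are known for using the a3 subunit, encoded by Tcirg1, and the d2 subunit, encoded by Atp6v0d2, at the ruffled border, the folded membrane through which acid is secreted on to bone. Carbonic anhydrase 2 supplies the protons, the chloride-proton exchanger CLC-7 with its partner OSTM1 balances the charge, and the exchanger SLC4A2 carries the bicarbonate left behind out of the cell. Loss of TCIRG1, CLC-7, OSTM1, SNX10, PLEKHM1 or carbonic anhydrase 2 is a known cause of osteopetrosis, the failure to resorb bone.

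Several facts about the libraries bear on every value that follows. The Irf8 transcript did not follow the knockout labels: its mean was 63.6 ± 2.61 RPKM (mean ± SD, n = 3) in gWT and 57.4 ± 1.44 RPKM in gKO at day 0, and it was higher in the libraries labelled gKO at day 3 (log2 difference 1.16 ± 0.12, limma adjusted p = 3.22e-10). RPKM is a read count divided by the length of the gene model and the reads of the library, so levels can be compared between genes. Such a level over a whole gene model cannot show whether an allele of Irf8 was disrupted. In the c set Irf8 was higher under the label cKO at days 0 and 3 but lower at day 6 (11.2 ± 3.08 against 26.3 ± 1.88 RPKM), so every direction drawn from a label below is a direction between labelled libraries. The header of the deposited table names 3 combined data sets, and the library names carry 3 prefixes, u for all g libraries and s or t for the c libraries. That a prefix stands for a data set was read from the names and is stated in neither labels nor header. In the c set the cWT libraries of days 0 and 3 were all s and the cKO libraries of those days all t. Summed RPKM of 9 neutrophil marker genes was 2005 to 2631 in gWT and 20531 to 25969 in gKO at day 0. The 9 osteoclast markers summed to 89.2 to 158 and 126 to 171 there and to 22134 to 23219 and 26013 to 26784 at day 6. None of the osteoclast markers was at 0 on days 3 and 6. In bulk libraries fewer cells of a type and less RNA per cell cannot be told apart.

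Of the 30 genes, 29 were expressed above the minimum for testing, 1 RPKM or more in 3 or more libraries. The exception was Atp6v0e2, the second paralog of the e subunit, which lay between 0 and 0.136 RPKM in all 36 libraries. The V1 paralogs Atp6v1b1, Atp6v1c2, Atp6v1e2 and Atp6v1g3 and the a4 subunit gene Atp6v0a4 were also near or at 0. In osteoclasts of the gWT set the B subunit gene Atp6v1b2 had the highest level, 1347 ± 4.85 RPKM, followed by the V0 gene Atp6v0b at 956 ± 11.5 RPKM. The next 3 levels, 685 ± 25.6 RPKM for Atp6v0d2, 679 ± 14.1 RPKM for Tcirg1 and 678 ± 9.50 RPKM for Atp6v1e1, did not differ beyond their spread. At the low end were Mcoln1, the gene of a lysosomal cation channel, at 28.1 ± 0.343 RPKM, the transcription factor gene Tfeb at 13.4 ± 0.492 RPKM, Atp6v0a1 at 13.4 ± 0.493 RPKM and Atp6v0a2 at 11.1 ± 0.545 RPKM.

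Because most of these genes moved together, as described below, the promoters of those with an entry in the RefSeq table (build GRCm38.p6, 250 bases before to 50 bases after each annotated start) were searched for short motifs on both strands. A window was found for 23 of the 30 genes; Atp6v0a2, Atp6v0d2, Atp6v1b2, Atp6v1c1, Atp6v1g1, Atp6v1h and Car2 had none. The core CACGTG, the letters bound by the TFEB and MITF family and by other E-box factors, was present for 7 of the 23 genes (30.4%) and for 8.09% of the 27025 genes in the table. Lamp1 held 4 copies, Atp6v0b, Clcn7 and Mcoln1 held 2 each, and Atp6v0d1, Atp6v0e and Atp6v1a held 1 each. The longer lysosomal palindrome, CACGTG flanked by GT and AC, was in none of the 23 and in 0.37% of all genes. The M-box type TCANNTGA, where N is any base, was in 8 of 23 (34.8%, against 9.56% of all genes), and 5 of its 10 matches overlapped a CACGTG. The AP-1 letters TGANTCA were in 2 of 23 (8.7%, against 8.97%). The interferon-response type, GAAA and GAAA with any 2 bases between, letters that IRF factors bind, was in 4 of 23 (17.4%, against 3.99%), and the ETS-IRF composite, GGAA and GAAA with any 2 bases between, in 0 of 23 (3.16% of all genes). A gene was counted if any of its windows held a match, so genes with several annotated starts had more chances of a match. The number of windows per gene was not matched between the members and all genes. These are matches of letters, not sites of binding.

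Windows with more than 1 E-box core are shown for lysosome genes that fell and that rose: Lamp1 (chr8:13158911-13159210, plus strand), which fell, and Clcn7 (chr17:25133141-25133440, plus strand) and Mcoln1 (chr8:3500269-3500568, plus strand), which rose by day 6. Each reads 5′ to 3′ along the gene, with CACGTG in capitals.
Lamp1: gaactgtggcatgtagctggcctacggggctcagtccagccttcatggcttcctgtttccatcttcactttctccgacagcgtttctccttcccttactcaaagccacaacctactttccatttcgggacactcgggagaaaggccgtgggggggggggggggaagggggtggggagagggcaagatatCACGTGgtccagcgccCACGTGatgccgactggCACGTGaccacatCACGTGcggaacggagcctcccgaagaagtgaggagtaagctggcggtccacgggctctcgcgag
Clcn7: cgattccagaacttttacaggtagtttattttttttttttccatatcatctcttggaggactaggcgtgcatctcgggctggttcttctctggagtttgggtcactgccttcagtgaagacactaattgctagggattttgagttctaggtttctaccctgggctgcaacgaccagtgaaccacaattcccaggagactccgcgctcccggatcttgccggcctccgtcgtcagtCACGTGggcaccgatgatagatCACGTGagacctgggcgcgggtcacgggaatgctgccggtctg
Mcoln1: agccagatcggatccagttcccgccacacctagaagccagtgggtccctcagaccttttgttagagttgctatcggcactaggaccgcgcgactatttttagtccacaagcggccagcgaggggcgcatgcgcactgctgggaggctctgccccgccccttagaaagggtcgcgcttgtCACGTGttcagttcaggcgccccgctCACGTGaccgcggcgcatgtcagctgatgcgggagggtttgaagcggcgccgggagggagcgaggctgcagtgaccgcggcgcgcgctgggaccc
In Lamp1 the 4 copies begin 61, 45, 28 and 15 bases before the start, in Clcn7 1 copy begins 15 bases before and 1 lies after it, and in Mcoln1 the copies begin 71 and 45 bases before.

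Of the 4 genes with the interferon-response letters, Snx10, Tcirg1 and Atp6v1d rose in gWT and Lamp1 fell. The windows of Snx10 (chr6:51524010-51524309, plus strand) and Tcirg1 (chr19:3905181-3905480, minus strand) are shown as examples. The letters occur on the opposite strand and so read here as TTTC and TTTC with 2 bases between, in capitals.
Snx10: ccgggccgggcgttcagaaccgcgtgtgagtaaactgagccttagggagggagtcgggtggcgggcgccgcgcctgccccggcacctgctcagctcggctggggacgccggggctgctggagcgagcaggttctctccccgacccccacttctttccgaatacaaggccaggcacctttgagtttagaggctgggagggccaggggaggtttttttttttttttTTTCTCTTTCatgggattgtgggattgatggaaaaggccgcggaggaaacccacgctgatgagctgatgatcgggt
Tcirg1: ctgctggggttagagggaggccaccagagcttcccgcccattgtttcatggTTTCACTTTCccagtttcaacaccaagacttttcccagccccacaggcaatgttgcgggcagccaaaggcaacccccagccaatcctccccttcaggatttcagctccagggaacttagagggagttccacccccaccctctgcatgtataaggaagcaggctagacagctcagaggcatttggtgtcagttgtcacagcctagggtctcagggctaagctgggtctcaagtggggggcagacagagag
The match begins 26 bases before the annotated start in this Snx10 window and 199 bases before it in this Tcirg1 window. Both genes have other annotated starts, whose windows held no match to these letters.

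The first comparison followed the gWT libraries from macrophage to preosteoclast to osteoclast. All 8 V1 subunit genes, both accessory genes and all 4 genes of proton, chloride and bicarbonate transport rose in each of the 2 steps. Car2, Atp6v0d2, Slc4a2 and Snx10 rose most from day 0 to day 3, while Lamp1, Lamp2, Atp6v0a1 and Plekhm1 fell. From day 0 to day 3, 22 of 29 tested genes rose, 6 fell and 1 was not called, where a call is an adjusted p under 0.05 in a limma fit on log2(RPKM + 1) over all genes tested. Of all 11863 genes, 48.4% were called higher and 35.0% lower. By size, 9 of the 29 rose at least 2-fold against 15.8% of all genes, and the median change was 0.79 against 0.13 (log2). From day 3 to day 6, 25 rose and 2 fell, against 27.7% and 47.9% of all genes, and 17 rose at least 2-fold against 4.99%. The median change of that step was 1.14, against -0.14 for all genes. Quantile scaling moved the all-gene split of this step from 3285 higher and 5680 lower to 4511 and 4435, and the all-gene median to 0.01, with 26 members higher and 1 lower. In the first step it gave 18 higher and 7 lower, and it ended the calls of Atp6v0a2 (0.09), Atp6ap1 (0.07), Ostm1 (0.06) and Rab7 (0.04).

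The d subunit links the rotor of V0 to V1 and has a widely expressed paralog and an osteoclast paralog. Atp6v0d2, the osteoclast paralog, had 8.36, 13.7 and 12.4 RPKM at day 0, 162, 176 and 208 RPKM at day 3 and 689, 657 and 708 RPKM at day 6 in the gWT libraries. No 2 days overlapped, and the gene rose by 3.89 ± 0.11 and then by 1.91 ± 0.11 (log2 ± SE, limma adjusted p = 4.27e-23 and 1.84e-15). The widely expressed Atp6v0d1 had 99.05, 102 and 107, then 79.8, 84.1 and 88.99, then 134, 137 and 138 RPKM. It fell slightly and then rose above its starting level, with changes of -0.28 ± 0.05 and 0.69 ± 0.05 (limma adjusted p = 1.27e-05 and 5.08e-13).

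The a subunit of V0 anchors the pump and decides which membrane it reaches. Tcirg1, the a3 gene of the ruffled border and secretory lysosomes, had 143, 156 and 158 RPKM in BMMs, 275, 289 and 313 RPKM in preosteoclasts and 667, 694 and 674 RPKM in osteoclasts. Each day lay above the last without overlap, and the rises were 0.94 ± 0.06 and 1.21 ± 0.06 (limma adjusted p = 1.22e-15 and 5.72e-18). Atp6v0a1, the a1 paralog, ran the other way in the first step, from 44.3, 41.8 and 45.04 RPKM to 14.5, 13.99 and 12.9 RPKM, and stood at 12.8, 13.7 and 13.7 RPKM at day 6. It fell by 1.60 ± 0.10 on the log2 scale by day 3 (limma adjusted p = 5.2e-15), and its day 3 and day 6 values overlapped. Atp6v0a2, the a2 paralog of the Golgi and endosomes, stayed low, at 10.5, 9.57 and 9.43, then 11.98, 11.7 and 12.1, then 11.3, 11.6 and 10.5 RPKM, with a called rise of 0.25 in the first step (limma adjusted p = 0.000115). About 10.8% of the 50-base stretches of its transcripts also occur in another gene model, 4930404A12Rik, so its counts may be shared.

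The V1 genes rose as a block. Atp6v1e1, of the stalk that holds the catalytic head in place, went from 109, 119.8 and 112 RPKM to 186, 193 and 226 RPKM and 688, 673 and 671 RPKM. The second step was the larger for it, 1.75 ± 0.07 after 0.82 ± 0.07 (limma adjusted p = 1.53e-18 and 3.02e-11). Atp6v1d, of the central shaft, rose by 1.04 and 1.73, and the catalytic A subunit gene Atp6v1a by 0.63 and 1.54. Across the 8 V1 genes the rises ran from 0.43 (Atp6v1f) to 1.30 (Atp6v1h) in the first step and from 0.93 (Atp6v1g1) to 1.75 (Atp6v1e1) in the second. The proteolipid ring genes Atp6v0b and Atp6v0c, whose products carry the protons, rose by 0.86 and 0.59 and then by 0.89 and 0.59. Transcripts of Atp6v0c share 27.06% of their 50-base stretches with pseudogenes, and those of Atp6v1g1 19.15%, so the levels of both are uncertain. Transcripts of Atp6v1f share 11.23% with another gene model, so its counts may be shared too.

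The genes of acid supply and ion balance also rose. Car2, which hydrates carbon dioxide to a proton and bicarbonate, was close to 0 at day 0, with 0.695, 1.15 and 0.929 RPKM, and reached 26.7, 29.2 and 35.7 RPKM at day 3 and 144, 148 and 147 RPKM at day 6. Its changes were 4.03 ± 0.11 and 2.23 ± 0.11 (limma adjusted p = 5.61e-24 and 1.43e-17), and the first is understated because the added 1 RPKM exceeds or nearly equals the starting level. Slc4a2, the chloride-bicarbonate exchanger, had 20.1, 18.3 and 19.8 RPKM, then 74.01, 76.5 and 99.02 RPKM, then 203, 210.3 and 196 RPKM. It rose by 2.03 ± 0.09 and 1.29 ± 0.09 (limma adjusted p = 1.39e-18 and 1.22e-13), and 9.73% of its 50-base stretches are shared with the overlapping gene Fastk.

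Clcn7, the chloride-proton exchanger, had 33.98, 35.6 and 34.2 RPKM, then 73.97, 75.6 and 89.2 RPKM, then 237, 246 and 239 RPKM, and rose by 1.17 ± 0.08 and 1.59 ± 0.08 (limma adjusted p = 1.05e-14 and 1.68e-17). Ostm1, the partner that CLC-7 needs to be stable, was later: it had 29.9, 27.03 and 28.5 RPKM at day 0, 30.6, 31.4 and 36.6 RPKM at day 3 and 77.3, 78.5 and 75.97 RPKM at day 6. Its first step was 0.20 ± 0.05 (limma adjusted p = 0.000883) and its second 1.21 ± 0.05 (limma adjusted p = 1.12e-18), so most of its rise fell between preosteoclast and osteoclast.

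The trafficking genes did not move as one. Snx10, a sorting nexin that binds endosomal membranes, had 32.7, 35.5 and 31.9 RPKM, then 89.7, 95.4 and 122 RPKM, then 388, 383 and 389 RPKM, with rises of 1.58 ± 0.07 and 1.92 ± 0.07 (limma adjusted p = 6.53e-18 and 1.86e-19). Plekhm1, an adaptor between RAB7 and the fusion machinery of late endosomes, fell and came back, with 48.9, 42.8 and 46.8 RPKM, then 21.5, 21.3 and 25.5 RPKM, then 50.3, 52.5 and 50.7 RPKM. Its day 3 values lay below both other days, and the steps were -0.99 ± 0.08 and 1.14 ± 0.08 (limma adjusted p = 5.11e-12 and 3.39e-13). Tfeb, which activates lysosome genes, had 17.8, 21.4 and 19.6 RPKM, then 11.2, 11.3 and 11.2 RPKM, then 12.9, 13.8 and 13.5 RPKM. It fell by 0.75 ± 0.09 (limma adjusted p = 5.75e-09) and rose by 0.24, a call that was lost without the gWT day 6 replicate 2 library (0.21, limma adjusted p = 0.0545). Rab7, the small GTPase of late endosomes, moved little, from 176 ± 6.45 to 189 ± 5.53 and 244 ± 4.91 RPKM. About 12.67% of the 50-base stretches of its transcripts also occur in other gene models, so its counts may be shared.

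The transcripts of 2 structural proteins of the lysosome membrane, Lamp1 and Lamp2, went down while those of most pump subunits went up. Lamp1, the most abundant of the 30 transcripts in BMMs, had 895, 934 and 948 RPKM at day 0, 355, 355 and 349 RPKM at day 3 and 199, 205 and 209 RPKM at day 6. It fell by 1.39 ± 0.07 and then by 0.79 ± 0.07 on the log2 scale (limma adjusted p = 1.18e-16 and 8.84e-11). Lamp2, its close relative, had 106, 108 and 103 RPKM, then 32.7, 32.2 and 31.8 RPKM, then 28.6, 29.7 and 29.3 RPKM, and fell by 1.68 ± 0.06 in the first step (limma adjusted p = 1.67e-21). The second step of Lamp2 was -0.14 (limma adjusted p = 0.0289), which read 0.063 under quantile scaling and lost its call, at -0.12 to -0.14, without gWT day 3 replicate 1 or 2 or gWT day 6 replicate 1 or 3. Mcoln1 had 18.9, 19.2 and 20.7 RPKM, 18.2, 18.3 and 19.4 RPKM and 27.8, 28.00 and 28.5 RPKM, and only its second step was called (0.57 ± 0.05, limma adjusted p = 1.71e-11). Of the macrophage markers, 2336 to 2392 summed RPKM at day 0 became 1032 to 1125 at day 3 and 1547 to 1708 at day 6. These markers include Cd68, which is also in the list of lysosome membrane genes used below. Their part in the fall of Lamp1 and Lamp2 was not tested.

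**Figure D1:**
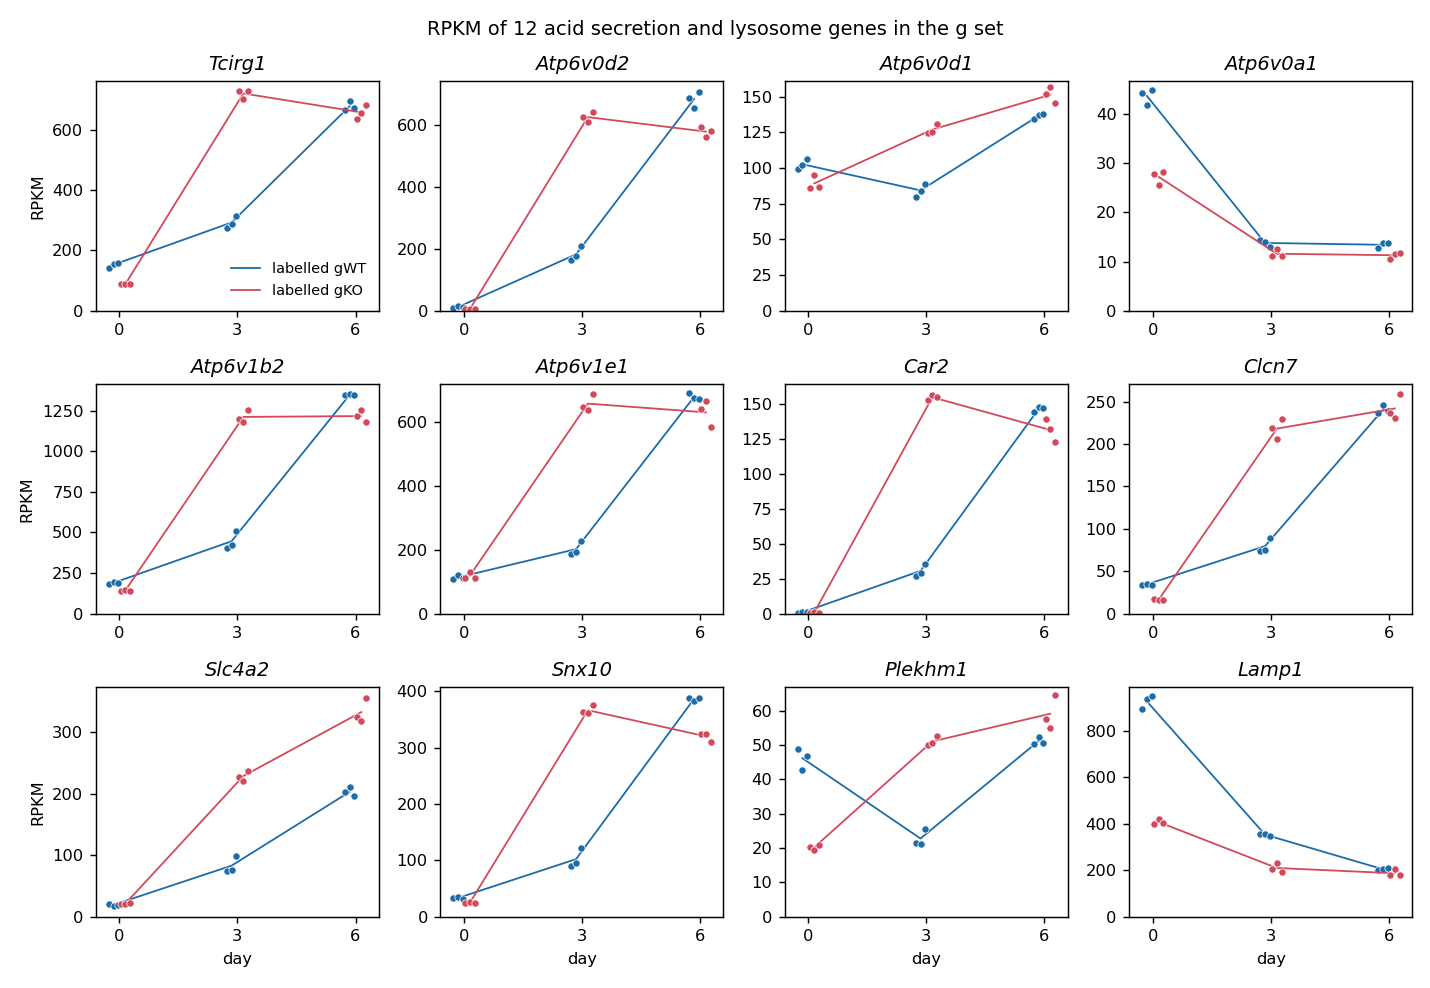
RPKM of 12 of the 30 genes in each library of the g set by day of culture, blue for gWT and red for the libraries labelled gKO; points are libraries, set side by side, and lines join the means of 3. Most red points of the pump and acid secretion genes are at or near their final height by day 3, the blue points by day 6. The red points of Slc4a2 and Atp6v0d1 still rise to day 6, and Lamp1 and Atp6v0a1 run downward in both.

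Within the gWT day 3 group 1 library stood ahead of the others. Replicate 3 was the highest of its group for 25 of the 29 genes, and its osteoclast markers summed to 5380 RPKM, against 3538 and 3873 RPKM in replicates 1 and 2. Leaving it out changed the call of Atp6ap1 and Rab7 from day 0 to day 3, the smallest rises of that step, to 0.06 (limma adjusted p = 0.245) and 0.08 (limma adjusted p = 0.0953).

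The paralog make-up of the pump was then read from ratios within each library, which do not depend on scaling between libraries. In gWT, Atp6v0d2 was 7.79%, 11.8% and 10.4% of the summed RPKM of Atp6v0d1 and Atp6v0d2 at day 0, 67.1%, 67.6% and 70.03% at day 3 and 83.7%, 82.7% and 83.7% at day 6. The 3 days did not overlap: the d subunit transcripts were mostly d1 in macrophages and mostly d2 in preosteoclasts and osteoclasts. For the a subunit, Tcirg1 was 72.3%, 75.3% and 74.3% of the transcripts at day 0, 91.2%, 91.8% and 92.6% at day 3 and 96.5%, 96.5% and 96.5% at day 6. Atp6v0a1 made up 21.3% ± 1.14 (mean ± SD, n = 3) at day 0 and 1.91% ± 0.0514 at day 6. Both steps of each of these shares had an exact two-sided permutation p of 0.1, the smallest that 3 against 3 libraries can give. The e subunit was Atp6v0e at 99.9% or more, and the G subunit Atp6v1g1 at 98.3% or more, in every library of all 12 groups.

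**Figure D2:**
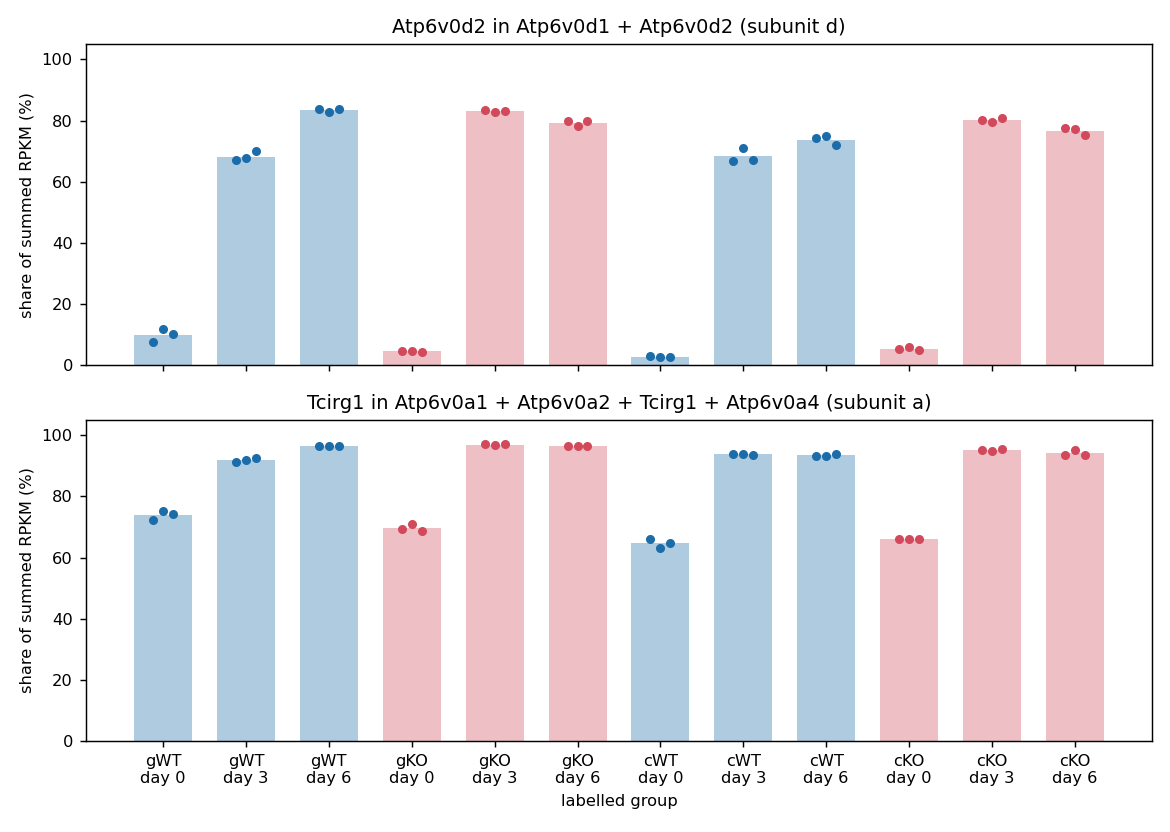
Share of Atp6v0d2 in the d subunit transcripts and of Tcirg1 in the a subunit transcripts, in percent of summed RPKM, for the 12 groups; bars are means of 3 libraries and points are the libraries. Atp6v0d2 is a small share in every group at day 0 and the larger share in every group at days 3 and 6.

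In the libraries labelled gKO the same genes made nearly the whole rise in the first 3 days. From day 0 to day 3, 24 of 29 rose, 3 fell and 2 were not called, and 22 rose at least 2-fold. All 8 V1 genes, both accessory genes, all 4 acid secretion genes, and Plekhm1, Snx10, Rab7 and Mcoln1 were among the rises, and Atp6v0a1, Lamp1 and Lamp2 were the falls. Of all genes 28.6% were called higher, 53.9% lower and 9.77% at least 2-fold higher, and the median was 1.97 for the members and -0.23 for all genes (log2). From day 3 to day 6 only 12 rose, 4 fell and 13 were not called, none of them by 2-fold (0.607% of all genes rose and 3.16% fell by 2-fold), against 26.0% of all genes higher and 33.3% lower, with medians of 0.14 and -0.03. The all-gene split of that step went from 3084 higher and 3948 lower to 3922 and 3204 under quantile scaling, with 11 members higher and 4 lower.

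Atp6v0d2 had 4.30, 4.84 and 4.03 RPKM in gKO-labelled BMMs, 626, 610.1 and 642 RPKM at day 3 and 595, 561 and 581 RPKM at day 6, a rise of 6.86 ± 0.11 in the first step (limma adjusted p = 6.82e-29) and a lower, uncalled level afterwards. Car2 had 0.566, 0.918 and 0.618 RPKM, then 153, 156 and 155 RPKM, then 139, 132 and 123 RPKM, and rose by 6.52 ± 0.11 (limma adjusted p = 6.82e-29). Snx10 had 24.3, 25.9 and 23.7 RPKM, then 363, 361 and 375 RPKM, then 325, 325 and 310.3 RPKM, rising by 3.84 ± 0.07 (limma adjusted p = 3.98e-27). These were the 3 largest rises, and the day 6 values of Car2, Atp6v0d2 and Snx10 all lay below their day 3 values. The decline was called for Snx10 (-0.19 ± 0.07, limma adjusted p = 0.0267), a call lost without gKO day 3 replicate 3 (-0.18) or gKO day 6 replicate 3 (-0.17).

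Tcirg1 had 87.1, 88.2 and 87.2 RPKM at day 0, 729, 704 and 729.9 RPKM at day 3 and 635, 657 and 682 RPKM at day 6. It rose by 3.03 ± 0.06 (limma adjusted p = 9.98e-28) and then fell by 0.13 ± 0.06 (limma adjusted p = 0.0412), a small change whose call was lost, at -0.11 to -0.13, without gKO day 3 replicate 1 or 3 or gKO day 6 replicate 1 or 2. Clcn7 had 16.8, 16.7 and 16.6 RPKM, then 219, 206 and 229.8 RPKM, then 237, 230.4 and 258 RPKM, a first step of 3.63 ± 0.08 (limma adjusted p = 2.02e-26). Ostm1 had 24.6, 24.2 and 24.7 RPKM, then 65.2, 65.4 and 69.7 RPKM, then 74.7, 74.3 and 74.6 RPKM, with steps of 1.41 ± 0.05 and 0.16 ± 0.05 (limma adjusted p = 1.36e-20 and 0.00955). Ostm1 thus rose in the first step here, not mainly in the second as in gWT. Quantile scaling also ended the second-step calls of Tcirg1 (-0.16, limma adjusted p = 0.139, and 0.0567 without the filter on low values) and Ostm1 (0.10, limma adjusted p = 0.129). Slc4a2 was among the genes that kept climbing, from 21.2, 20.98 and 21.6 RPKM to 228, 222 and 238 RPKM and 324, 318 and 356 RPKM. Its second step of 0.54 ± 0.09 was the largest of any member (limma adjusted p = 9.57e-06). Atp6v1g1 and Atp6v1f, G and F subunit genes of the V1 stalks, followed with 0.44 and 0.44.

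Plekhm1 showed no dip: it had 20.4, 19.4 and 20.8 RPKM, then 49.9, 50.7 and 52.5 RPKM, then 57.7, 55.1 and 64.6 RPKM, with a first step of 1.29 ± 0.08 (limma adjusted p = 1.11e-14). Tfeb had 13.4, 15.7 and 13.9 RPKM, then 13.98, 15.1 and 13.8 RPKM, then 10.3, 11.5 and 10.4 RPKM, overlapping between days 0 and 3 and falling by 0.39 ± 0.09 between days 3 and 6 (limma adjusted p = 0.000431). The lysosome membrane genes started lower than in gWT, Lamp1 at 398, 422 and 402 RPKM and Lamp2 at 61.8, 62.7 and 61.7 RPKM, and fell by 0.96 ± 0.07 and 0.98 ± 0.06 by day 3 (limma adjusted p = 8.4e-13 and 7.69e-16). At day 3 Lamp1 stood at 206, 229.9 and 193 RPKM and Lamp2 at 30.8, 33.1 and 29.1 RPKM, and at day 6 at 179, 203 and 178 RPKM and 23.5, 25.7 and 23.6 RPKM.

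Of the remaining a and d paralogs, Atp6v0a1 had 27.9, 25.5 and 28.3 RPKM, then 11.04, 12.5 and 11.1 RPKM, then 10.5, 11.5 and 11.8 RPKM, with a fall of 1.17 ± 0.10 in the first step (limma adjusted p = 8e-12). Atp6v0a2 had 10.7, 10.4 and 11.3 RPKM, then 10.96, 11.7 and 11.1 RPKM, then 12.3, 11.8 and 13.4 RPKM, with days 0 and 3 overlapping. Atp6v0d1 rose in both steps, from 86.2, 94.8 and 86.6 RPKM to 124, 126 and 131 RPKM and 152, 157 and 145 RPKM. As shares, Atp6v0d2 went from 4.68% ± 0.216 (mean ± SD, n = 3) of the d subunit transcripts to 83.1% ± 0.247 at day 3 and 79.3% ± 0.999 at day 6, and Tcirg1 from 69.7% ± 1.19 of the a subunit transcripts to 96.9% ± 0.228 and 96.5% ± 0.0617. At day 3 the Atp6v0d2 share was 14.9 percentage points higher in the libraries labelled gKO than in gWT and the Tcirg1 share 5.03 points higher, with no overlap (exact two-sided permutation p = 0.1, the smallest possible). At day 6 the Atp6v0d2 share was lower by 4.08 points, again without overlap (exact permutation p = 0.1), and the Tcirg1 shares overlapped.

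The libraries labelled gKO and gWT were next compared on each day. At day 0, before RANKL, most of the genes were lower under the gKO label: 22 of 29 were lower, 3 higher and 4 not called, against 29.8% of all genes lower and 49.0% higher, with medians of -0.41 and 0.16 (log2). The largest differences were Atp6v0d2 (-1.19 ± 0.11, limma adjusted p = 6.79e-11), Lamp1 (-1.18 ± 0.07, limma adjusted p = 6.86e-15) and Plekhm1 (-1.15 ± 0.08, limma adjusted p = 2.06e-13). Clcn7 was lower by 1.01 and Tcirg1 by 0.79. The 3 genes called higher, Atp6v1h (0.26), Atp6v1c1 (0.12) and Atp6v0a2 (0.12), differed little, and Atp6v0a2 read -0.10 under quantile scaling. The calls of Atp6v1c1 and Atp6v0a2 were each lost without any of 4 libraries: without gWT replicates 1 or 2 or gKO replicates 2 or 3 for Atp6v1c1 (0.09 to 0.13), and without gWT replicates 2 or 3 or gKO replicates 1 or 3 for Atp6v0a2 (0.09 to 0.13). Car2 overlapped between the labels at day 0, and Slc4a2 had means of 19.4 RPKM in gWT and 21.3 RPKM under gKO, neither called. Beside these values, neutrophil marker genes summed to 2005 to 2631 RPKM in gWT and 20531 to 25969 RPKM in gKO-labelled BMMs. Macrophage markers summed to 2336 to 2392 and 592 to 645 RPKM, and monocyte markers to 357 to 411 and 1629.9 to 1787 RPKM. The part of these other cell types in the lower levels was not tested.

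At day 3 the order was turned round: 25 of the 29 genes were higher under the gKO label, 15 of them at least 2-fold, 2 were lower and 2 not called. Of all genes 32.6% were called higher, 46.5% lower and 6.78% at least 2-fold higher, and the medians were 1.004 and -0.11. Quantile scaling moved the all-gene split from 3862 higher and 5522 lower to 4731 and 4662, and the members to 27 higher and 1 lower. Car2 differed most (2.31 ± 0.11, limma adjusted p = 5.75e-18), then Snx10 (1.84 ± 0.07, limma adjusted p = 3.9e-19) and Atp6v0d2 (1.78 ± 0.11, limma adjusted p = 8.24e-15). Tcirg1 was higher by 1.30 ± 0.06, Clcn7 by 1.45 ± 0.08, Slc4a2 by 1.46 ± 0.09 and Plekhm1 by 1.13 ± 0.08 (limma adjusted p = 1.11e-18, 1.28e-16, 6.06e-15 and 3.34e-13). For each of these 7 genes all 3 gKO-labelled libraries lay above all 3 gWT libraries. The 2 lower genes were Lamp1 (-0.75 ± 0.07, limma adjusted p = 2.17e-10) and Atp6v0a1 (-0.23 ± 0.10, limma adjusted p = 0.0345), and the call of Atp6v0a1 was lost, at -0.20 to -0.22, without gWT replicate 1 or 2 or gKO replicate 1 or 3 and, at -0.04, under quantile scaling, and without the filter on low values (limma adjusted p = 0.0663). The neutrophil genes still differed, with 307 to 730.3 against 5451 to 6681 RPKM, and the osteoclast markers stood at 3538 to 5379.5 against 22372 to 23427 RPKM.

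By day 6 little was left of the difference. In osteoclasts 9 genes were higher under the gKO label, 5 lower and 15 not called, none by 2-fold (0.683% of all genes higher and 1.69% lower by 2-fold), while 24.7% of all genes were higher and 25.3% lower. The medians were -0.03 and 0.00. Slc4a2 was the largest (0.71 ± 0.09, limma adjusted p = 1.59e-07), followed by Mcoln1 (0.35 ± 0.05, limma adjusted p = 1.06e-06) and Atp6v1g1 (0.31 ± 0.08, limma adjusted p = 0.00239). The largest falls were Tfeb (-0.30 ± 0.09, limma adjusted p = 0.00546), Snx10 (-0.27 ± 0.07, limma adjusted p = 0.00323) and Lamp2 (-0.26 ± 0.06, limma adjusted p = 0.000376), and quantile scaling ended the call of Snx10 (-0.18, limma adjusted p = 0.0667). Tcirg1, with 679 ± 14.1 RPKM in gWT and 658 ± 23.6 RPKM in gKO-labelled osteoclasts, and Clcn7, with 240.4 ± 4.57 and 242 ± 14.7 RPKM, overlapped. Neutrophil genes summed to 84.1 to 105 against 700.3 to 859.6 RPKM and osteoclast markers to 22134 to 23219 against 26013 to 26784 RPKM.

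**Figure D3:**
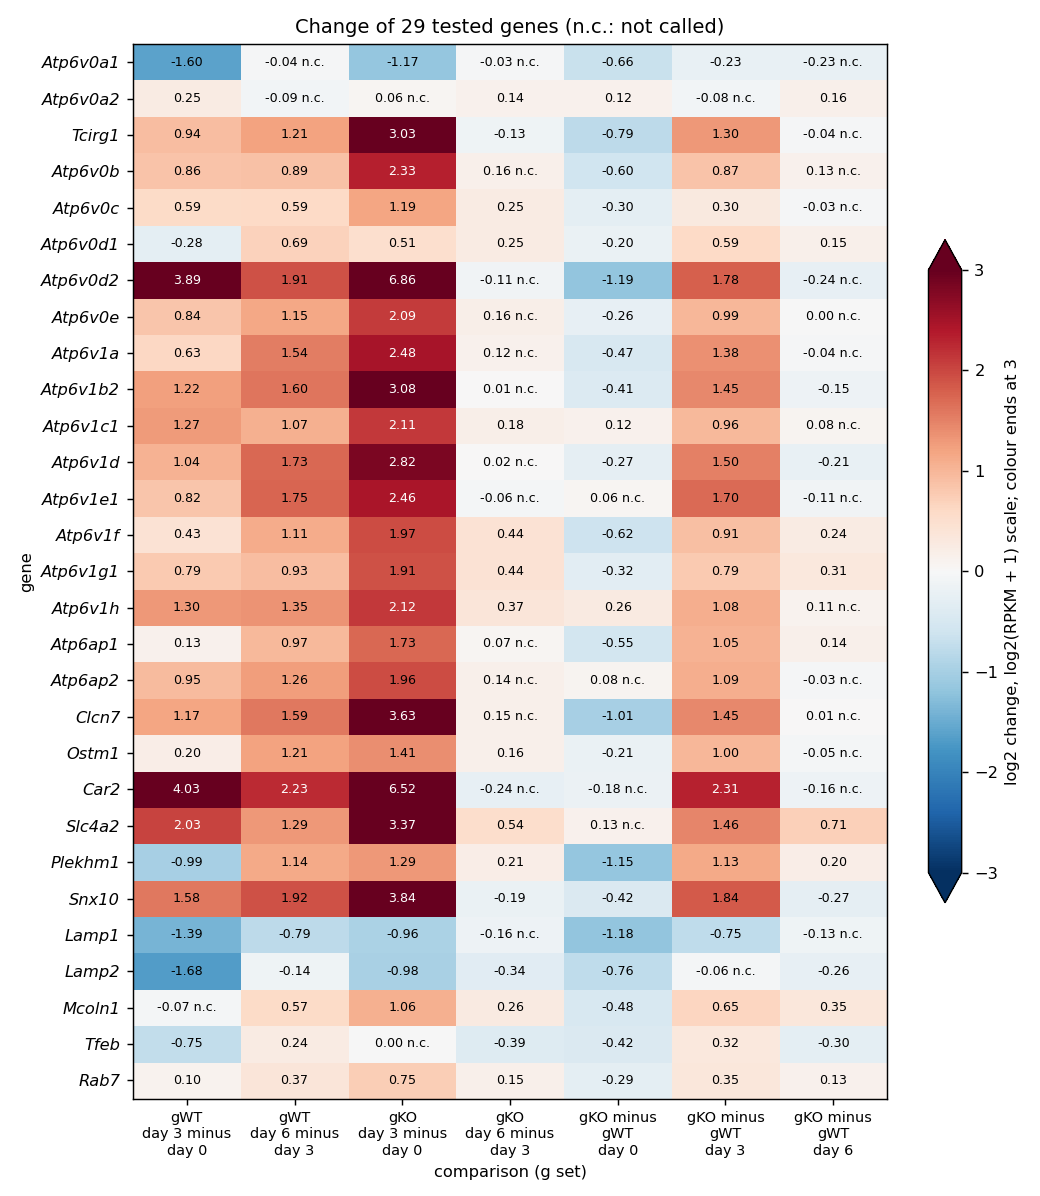
Log2 changes of the 29 tested genes in 7 comparisons of the g set, each cell printed with its value, red for higher and blue for lower with the colour ending at 3, and n.c. where the change was not called. The columns of the gKO day 3 minus day 0 step and of gKO minus gWT at day 3 are mostly red, and the columns of gKO day 6 minus day 3 and of gKO minus gWT at day 6 are close to white.

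Whether the time courses differed between the labels was tested directly, as the difference between the 2 labels of the change from one day to the next. From day 0 to day 3 the change was more positive under the gKO label for 28 of 29 genes and more negative for 1, Atp6v0a2 (-0.20, which read 0.21 under quantile scaling and lost its call, at -0.17, without gWT day 0 replicate 3 or gKO day 0 replicate 3). Of all genes 32.4% were called in the positive direction and 49.5% in the negative, with 13.1% past 2-fold in the positive direction against 19 of the 29 members. Quantile scaling moved the all-gene split from 3839 and 5868 to 4995 and 4734, the all-gene median from -0.22 to 0.03 and the members to 29 positive. The largest differences were in Atp6v0d2 (2.97 ± 0.16, limma adjusted p = 1.19e-16), Car2 (2.49 ± 0.15, limma adjusted p = 2.21e-15) and Clcn7 (2.45 ± 0.11, limma adjusted p = 1.08e-18). Plekhm1 followed at 2.28, Snx10 at 2.27 and Tcirg1 at 2.09.

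From day 3 to day 6 the sign was the other way: the signed change was more negative under the gKO label for 26 genes and more positive for 2, with 11 past 2-fold in the negative direction, against 33.2% negative, 41.6% positive and 9.34% past 2-fold negative among all genes. Car2 (-2.47 ± 0.15, limma adjusted p = 6.59e-15), Snx10 (-2.12 ± 0.11, limma adjusted p = 9.33e-17) and Atp6v0d2 (-2.02 ± 0.16, limma adjusted p = 1.91e-12) differed most. The 2 positive genes were Lamp1 (0.62 ± 0.10, limma adjusted p = 4.87e-06) and Atp6v0a2 (0.23 ± 0.08, limma adjusted p = 0.00864), of which Atp6v0a2 was not called under quantile scaling (0.04). The 2 step differences and the day 3 comparison use the same day 3 libraries and are not independent of each other.

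How far the rise had gone by day 3 was expressed as a share for the 20 genes that rose by at least 1 on the log2 scale from day 0 to day 6 under both labels. In gWT the day 3 level had covered 11.5% to 67.1% of that rise (median 43.4%), and in the libraries labelled gKO 81.1% to 105% (median 94.5%). The 2 ranges did not overlap, but they run over genes, each from group means, and do not measure the spread between libraries. The 20 genes were also picked by their rise in these same libraries. A comparison added after the values had been seen set gKO-labelled preosteoclasts of day 3 against gWT osteoclasts of day 6. None of the 29 genes was called higher and 6 were called lower, against 24.4% of all genes higher and 21.1% lower, with medians of -0.11 for the members and 0.00 for all genes.

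The 6 lower genes in that comparison were Atp6v0c (-0.29), Atp6v1h (-0.27), Atp6v1d (-0.23), Ostm1 (-0.21), Atp6ap2 (-0.17) and Atp6v1b2 (-0.15), all by limma. Quantile scaling gave 3 higher and 1 lower member, among them Tcirg1 higher by 0.31 (limma adjusted p = 0.00689), and moved the all-gene split from 2894 higher and 2499 lower to 2379 and 3185. With single libraries left out 2 to 6 were called: 2 without gKO day 3 replicate 1 or 2, and 3 without gWT day 6 replicate 1 or 2. The calls of Atp6v1b2 and Atp6ap2 were lost without gKO day 3 replicate 1 or 2 or gWT day 6 replicate 1, 2 or 3 (-0.14 to -0.15 and -0.15 to -0.18). Those of Atp6v0c were lost without gKO day 3 replicate 1 or 2 or gWT day 6 replicate 2 (-0.21 to -0.28), and those of Atp6v1d without gKO day 3 replicate 1 or 2 or gWT day 6 replicate 1 (-0.20 to -0.22). For Tcirg1 the difference was 0.09 ± 0.06, for Atp6v0d2 -0.13 ± 0.11 and for Car2 0.08 ± 0.11 (log2 ± SE), none called. Atp6v0d2 read 0.073 under quantile scaling.

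**Figure D4:**
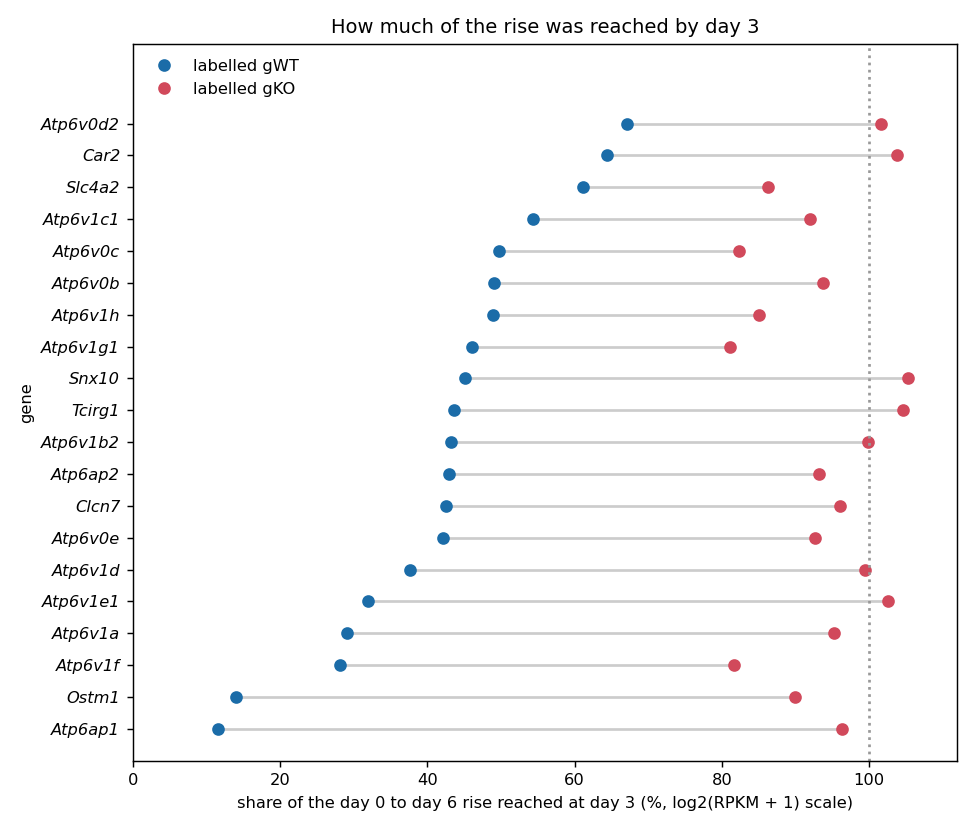
Share of the day 0 to day 6 rise in log2(RPKM + 1) that each of 20 genes had reached at day 3, blue for gWT and red for the libraries labelled gKO, 1 point per gene and label from group means of 3 libraries. The blue points lie between 11.5% and 67.1% and the red points between 81.1% and 105%.

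Other genes of the pathway, given as fixed lists, were more mixed. Of 31 tested lysosome membrane genes 6 were higher, 20 lower and 5 not called in the first step of gWT, against 48.4% of all genes higher and 35.0% lower. The falls included the peptide transporter Slc15a3 (-2.19) and the amino acid transporter Slc36a1 (-1.94), while Gpr137b rose by 2.07. From day 3 to day 6 in gWT 17 were higher, 8 lower and 6 not called, against 27.7% and 47.9% of all genes, with Hgsnat (1.38) and Laptm4b (1.36) at the top. Between the labels at day 0, 4 were higher, 25 lower and 2 not called, against 49.0% and 29.8% of all genes, the largest being Slc15a3 (-2.13), the tetraspanin Cd63 (-1.65) and Laptm4a (-1.59). The day 0 to day 3 change differed between the labels in the positive direction for 25 of the 31 and in the negative for 2, against 32.4% and 49.5% of all genes.

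Among 13 tested genes of V-ATPase assembly and regulation, 9 were higher, 3 lower and 1 not called in the first gWT step (all genes 48.4% higher and 35.0% lower), led by the assembly factor genes Tmem199 (1.43) and Vma21 (1.18), and 8 were higher, 3 lower and 2 not called in the second (all genes 27.7% and 47.9%), led by Oxr1 (1.52) and Dmxl1 (1.25). At day 3 under the gKO label 7 were higher, 4 lower and 2 not called (all genes 32.6% higher and 46.5% lower), with Oxr1 at 1.47 and Dmxl1 at 1.01. Of 22 tested genes of ion transport, 12 were higher, 5 lower and 5 not called in the first gWT step, a share of rises close to that of all genes (48.4%). The sodium-proton exchanger Slc9a9 fell by 4.27, from 50.3 to 1.66 RPKM. The sodium-bicarbonate cotransporter Slc4a7 peaked in gWT at day 3, with 6.98 ± 0.834, 42.8 ± 2.48 and 12.4 ± 1.22 RPKM on days 0, 3 and 6, and was lower under the gKO label at day 3 (-2.06 ± 0.08, limma adjusted p = 2.04e-19).

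Of 37 tested trafficking genes, 11 were higher, 18 lower and 8 not called in the first gWT step (all genes 48.4% higher and 35.0% lower) and 17 were higher, 12 lower and 8 not called between the labels at day 3 (all genes 32.6% and 46.5%). Rab38, a small GTPase of lysosome-related organelles, rose by 3.01 and 2.39 in gWT and was higher by 1.92 under the gKO label at day 3. Rab27a and Lyst, genes of secretory granules that neutrophils also express, were higher by 2.70 and 2.33 under the gKO label at day 0. The neutrophil genes were higher there too, and their part in these 2 differences was not tested. Of 23 tested genes of the TFEB, MITF and mTORC1 group, 10 were higher, 8 lower and 5 not called in the first gWT step, near the all-gene shares of 48.4% and 35.0%, with the osteoclast regulator Nfatc1 at 2.31 and the folliculin gene Flcn at -1.55, and 9 were higher, 8 lower and 6 not called between the labels at day 3. Mitf itself was lower by 0.88 under the gKO label at day 3. The only tested paralog outside the 30, Atp6v1g2, fell by 0.70 from day 0 to day 3 in gWT.

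In the c set the labels, the name prefixes and Irf8 do not line up, so the values are given for the labelled libraries. From day 0 to day 3, each label lies within 1 name prefix, and the genes rose under both: 22 of 29 rose and 6 fell for cWT, against 39.8% and 38.9% of all genes, and 25 rose and 3 fell for cKO, against 30.2% and 50.2%. The medians were 0.90 for cWT and 1.60 for cKO, against 0.01 and -0.16 for all genes. Atp6v0d2 had 3.77, 3.63 and 3.36 RPKM and then 209.8, 262 and 215 RPKM for cWT (rise 5.64 ± 0.11, limma adjusted p = 1.25e-26). For cKO the gene had 5.66, 6.39 and 5.01 RPKM and then 491, 486 and 523 RPKM (rise 6.23 ± 0.11, limma adjusted p = 1.11e-27). Car2 went from 0.787, 0.588 and 0.893 RPKM to 59.9, 67.8 and 59.6 RPKM for cWT and from 0.530, 1.01 and 0.932 RPKM to 209, 204 and 224 RPKM for cKO, rises of 5.18 and 6.88. The third largest rises were Atp6v1b2 for cWT (1.93) and Snx10 for cKO (3.31). As in the g set, the falls were led by Atp6v0a1 (-2.44 and -1.29), Lamp2 (-1.74 and -0.80) and Lamp1 (-1.44 and -0.74).

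For the other genes with each library given, the cWT libraries of days 0 and 3 had 118, 110.1 and 108 and then 294, 346 and 303 RPKM of Tcirg1, and the cKO libraries 105, 99.8 and 98.4 and then 566, 553 and 559.8 RPKM. Atp6v0d1 had 119, 126 and 115 and then 105, 107 and 105 RPKM for cWT, and 98.2, 97.4 and 95.6 and then 123, 125 and 123 RPKM for cKO. Atp6v0a1 had 50.2, 53.3 and 47.9 and then 7.72, 10.04 and 7.93 RPKM for cWT, and 42.02, 39.3 and 39.00 and then 16.4, 17.3 and 14.01 RPKM for cKO. Under both labels a3 went up and a1 down, as in the g set. Atp6v0a2 had 10.6, 10.8 and 11.02 and then 11.3, 13.03 and 12.6 RPKM for cWT, and 11.5, 11.8 and 11.3 and then 13.1, 12.7 and 13.3 RPKM for cKO. Clcn7 had 27.8, 28.3 and 26.4 and then 69.3, 96.1 and 77.8 RPKM for cWT, and 17.8, 16.4 and 16.9 and then 167, 166 and 168 RPKM for cKO. Ostm1 had 27.6, 28.6 and 27.8 and then 29.96, 34.9 and 31.8 RPKM for cWT, and 26.5, 26.3 and 25.98 and then 53.9, 52.03 and 54.1 RPKM for cKO. The cWT rise of Ostm1 was 0.19 and its cKO rise 0.996.

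Slc4a2 had 23.5, 23.3 and 25.8 and then 71.8, 100.5 and 73.8 RPKM for cWT, and 24.7, 23.3 and 24.5 and then 173, 173 and 179 RPKM for cKO. Snx10 had 22.6, 22.3 and 21.6 and then 77.6, 96.5 and 85.8 RPKM for cWT, and 22.1, 21.03 and 21.6 and then 219, 223 and 225 RPKM for cKO. Both rose under each label, with no overlap between days. Plekhm1 had 37.6, 34.6 and 37.5 and then 18.3, 25.3 and 19.2 RPKM for cWT, a fall of 0.79 ± 0.08 (limma adjusted p = 9.25e-10), and 23.7, 23.9 and 24 and then 43.4, 44.3 and 42.7 RPKM for cKO, a rise of 0.84 ± 0.08 (limma adjusted p = 2.43e-10). The opposite signs of Plekhm1 are those of the g set, where it fell in gWT and rose in the libraries labelled gKO. Tfeb had 18.2, 16.7 and 17.7 and then 18.8, 16.98 and 16.6 RPKM for cWT and 14.5, 14.5 and 16.2 and then 17.4, 17.1 and 16.8 RPKM for cKO, not called for either.

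Between the labels of the c set at days 0 and 3, genotype and name prefix cannot be told apart. At day 0, 18 of 29 genes were lower under cKO, 3 higher and 8 not called, against 31.7% and 36.2% of all genes, with medians of -0.20 and 0.03. Clcn7 (-0.66 ± 0.08), Lamp1 (-0.65 ± 0.07) and Plekhm1 (-0.59 ± 0.08) were the lowest (limma adjusted p = 9.39e-09, 7.28e-09 and 3.41e-07). Atp6v0d2 was higher (0.54 ± 0.11, limma adjusted p = 0.000104), at 5.69 against 3.59 RPKM, unlike in the g set, and Atp6v1h and Atp6v1c1 were each higher by 0.17. The call of Atp6v1h was lost, at 0.17, without cWT replicate 2 or 3 or cKO replicate 1 or 2. The neutrophil genes summed to 3413 to 3511 RPKM for cWT and 21336 to 22671 RPKM for cKO, and their part in these differences was not tested. At day 3, 24 genes were higher under cKO, none lower and 5 not called, against 32.8% and 44.2% of all genes, 7 of them at least 2-fold against 5.15% of all genes (4 without cWT day 3 replicate 1). Car2 (1.75 ± 0.11), Snx10 (1.36 ± 0.07) and Atp6v0d2 (1.13 ± 0.11) led (limma adjusted p = 8.02e-15, 1.15e-15 and 3.24e-10), with medians of 0.61 for the members and -0.07 for all genes.

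At day 6 of the c set the cKO libraries were all s, and of the cWT libraries replicates 1 and 2 were t and replicate 3 was s. Tcirg1 had 467, 470.5 and 503 RPKM for cWT and 622, 604 and 620.2 RPKM for cKO, with every cKO library above every cWT library. Atp6v0d2 had 376, 396 and 363 RPKM for cWT and 452, 521 and 446 RPKM for cKO, also without overlap. Atp6v0d1 had 130.4, 132 and 141 RPKM for cWT and 131, 153 and 146 RPKM for cKO, and these overlapped. Atp6v0a1 had 20.98, 20.1 and 19.4 RPKM for cWT and 30.96, 20.96 and 31.2 RPKM for cKO, where cKO replicate 2 stood at the level of the cWT libraries and the other 2 above it. Atp6v0a2 had 13.2, 13.7 and 12.8 RPKM for cWT and 12.7, 10.7 and 11.2 RPKM for cKO, all 3 cKO libraries below the cWT libraries. Of these 5 paralogs, Tcirg1 and Atp6v0d2 were the ones whose libraries were all higher under cKO, and other pump genes such as Atp6v1b2 and Atp6v0e were called higher as well, with the values given below.

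Among the acid secretion genes at day 6, Car2 had 149, 161 and 175 RPKM for cWT and 117, 146 and 124 RPKM for cKO, and all 3 cKO libraries lay below the cWT libraries. Clcn7 had 148, 148 and 152 RPKM for cWT and 242, 224 and 213 RPKM for cKO, all 3 cKO libraries being the higher. Ostm1 had 47.8, 48.7 and 48.1 RPKM for cWT and 49.5, 53.96 and 50.6 RPKM for cKO, the cKO libraries slightly higher. Slc4a2 had 180.0, 181 and 186 RPKM for cWT and 188, 165 and 172 RPKM for cKO, which overlapped. Of these 4, Clcn7 was called higher and Car2 lower, and Ostm1 (0.09 ± 0.05, limma adjusted p = 0.153) and Slc4a2 were not called. In trafficking, Snx10 had 149, 158 and 148 RPKM for cWT and 199, 222 and 197 RPKM for cKO, without overlap. Plekhm1 had 39.4, 40.6 and 38.8 RPKM for cWT and 53.95, 44.6 and 44.7 RPKM for cKO, again without overlap. Tfeb had 16.8, 16.7 and 19.1 RPKM for cWT and 17.1, 13.5 and 20.4 RPKM for cKO, the cKO libraries spreading on both sides of the cWT libraries.

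As counts, 15 of 29 genes were higher under cKO at day 6, 2 lower and 12 not called, against 13.2% and 40.4% of all genes, with medians of 0.18 and -0.11. Quantile scaling changed the all-gene split from 1569 higher and 4788 lower to 3003 and 2756 and the members to 17 higher and 1 lower. Clcn7 (0.59 ± 0.08), Atp6v1b2 (0.47 ± 0.06) and Atp6v0e (0.44 ± 0.09) were highest (limma adjusted p = 2.11e-07, 4.36e-07 and 0.000232). The lower genes were Car2 (-0.32 ± 0.11, limma adjusted p = 0.0112) and Atp6v0a2 (-0.18 ± 0.05, limma adjusted p = 0.00611). Car2 lost its call without cWT replicate 3 (-0.26) or cKO replicate 1 (-0.26), Atp6v0a2 without cKO replicate 2 (-0.14), and the higher gene Atp6v0d2 (0.32 ± 0.11) without cKO replicate 2 (0.25, limma adjusted p = 0.0957) or cWT replicate 3 (0.29, limma adjusted p = 0.0542). Car2 was also not called with a pseudocount of 0.1 (limma adjusted p = 0.11), nor Atp6v0a2 (-0.07) and Atp6v0d2 (0.27) under quantile scaling. Within prefix s, 3 cKO libraries against 1 cWT library, 23 genes lay above 0 and 6 below, with a median of 0.15 and no test. Neutrophil genes summed to 719 to 934 RPKM for cWT and 153 to 209 RPKM for cKO, and stromal genes to 399.5 to 565 and 164 to 225 RPKM. For both lists the median sum had been higher under cKO at days 0 and 3, so this order was reversed. Osteoclast markers kept their order, higher under cKO on all 3 days. They summed to 15707 to 17815 and 25020.4 to 25577 RPKM at day 6, after 5284 to 6607 and 16905 to 17168 RPKM at day 3.

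The step from day 3 to day 6 in the c set was therefore taken with the 2 labels of a day averaged. By this measure 26 of 29 genes rose, none fell and 3 were not called, against 21.0% and 46.4% of all genes, none by 2-fold (1 without cWT day 3 replicate 2 or cKO day 6 replicate 2, and 1.64% of all genes up and 0.919% down by 2-fold), with medians of 0.35 and -0.09. The all-gene split changed from 2491 higher and 5506 lower to 3357 and 4077 under quantile scaling. Atp6v0a1 (0.95 ± 0.07), Clcn7 (0.66 ± 0.05) and Slc4a2 (0.58 ± 0.06) rose most (limma adjusted p = 2.26e-12, 1.33e-11 and 5.76e-09). A separate fit of the c libraries alone used day means and the name prefix (as data set), without the labels. It called 9 genes instead of 26, and Clcn7 kept its size but lost its call (0.66, limma adjusted p = 0.0688). Differences between labels count as spread in that fit, so the lower count is not the effect of the prefix term alone. Within prefix s, with 3 libraries of day 3, all cWT, and 4 of day 6, 27 of the 29 genes lay above 0 (median 0.76), and within prefix t, with 3 of day 3, all cKO, and 2 of day 6, 10 lay above 0 and 19 below (median -0.08). Within each prefix the label changed along with the day, so these values cannot tell the time step from the difference between labels. Atp6v0d2 made up 2.90% ± 0.147, 68.3% ± 2.44 and 73.8% ± 1.5002 of the d subunit transcripts on days 0, 3 and 6 for cWT, and 5.53% ± 0.591, 80.2% ± 0.692 and 76.7% ± 1.23 for cKO. Tcirg1 made up 64.7% ± 1.41, 93.8% ± 0.147 and 93.5% ± 0.429 of the a subunit transcripts for cWT and 66.1% ± 0.0463, 95.1% ± 0.242 and 94.02% ± 0.867 for cKO.

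**Figure D5:**
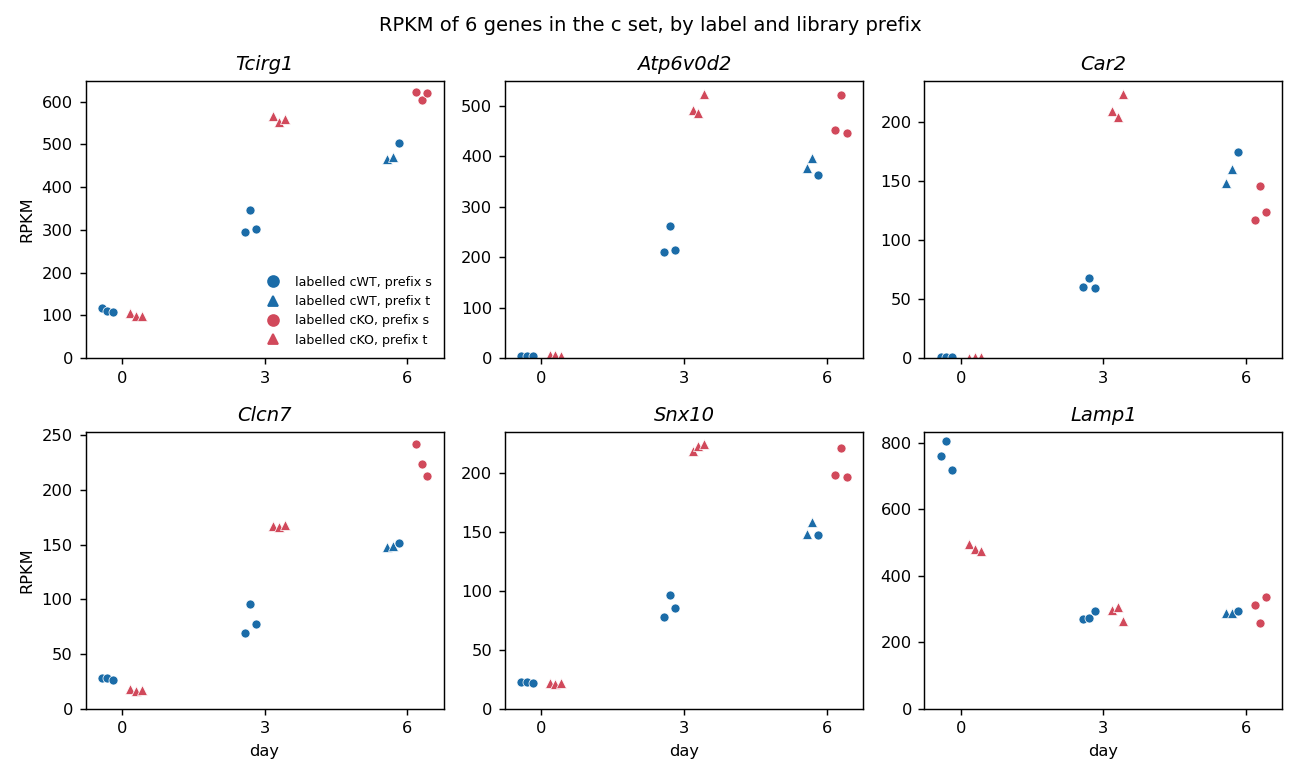
RPKM of 6 of the genes in each library of the c set by day of culture, blue for the label cWT and red for cKO, circles for libraries of name prefix s and triangles for prefix t. At days 0 and 3 colour and symbol go together, and at day 6 the red points are all circles while the blue points are 2 triangles and 1 circle.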

How the data were processed

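RNA-seq values were used as deposited: RPKM per gene and library, made by the authors with TopHat and Partek from 3 combined data sets, after a correction of annotation for day 6 of the c set, all per the file headers. The submitters' processing notes list CASAVA 1.8.4, bcl2fastq 2.17.1, TopHat2 2.1.0, Partek, deepTools and build mm9. Gene annotation, strand and the handling of shared reads are not given there. Depth was 34510144 to 92548145 alignments (median 46799532) per the deposited sample sheet, and replicate libraries correlated at 0.9917 to 0.9987 (Pearson, log2 RPKM + 1). Without counts per gene the counting error of low values is unknown.

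Values were taken as log2(RPKM + 1), which understates changes of low genes, and 11863 of 24950 genes, those at 1 RPKM or more in 3 or more libraries, were fitted with limma 3.58.1 in R 4.3.3 (12 group means over 36 libraries, 24 residual degrees of freedom, trend and robust moderation). The 17 comparisons were adjusted by Benjamini-Hochberg over all genes and called under 0.05, and a 2-fold count adds a log2 change of at least 1. The fit was tested on simulated data. Libraries of equal replicate number deviated together (every correlation above 0.1) only between gWT days 0 and 3 (0.142 to 0.347) and between gWT and gKO at day 3 (0.115 to 0.222), a pairing found in the data that the labels do not state. Shares of paralogs were compared by exact permutation tests, and sequences came from RefSeq promoters (GRCm38.p6). Shared 50-base stretches were counted in GENCODE vM21 transcripts. Tables and figures used Python 3.11.15, pandas 2.3.3, numpy 2.4.6, scipy 1.17.1 and matplotlib 3.10.9.

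The 30 genes, the pathway lists, the marker lists and the tests were chosen with earlier results of these data known. Genes named are the 12 paralog, acid secretion and trafficking genes given in every library, among called members the 3 that rose most and the 3 that fell most with 5 RPKM or more as the higher group mean in each comparison, and up to 3 genes per pathway list under the same minimum, and other members where a sentence turns on them. Alternatives were a pseudocount of 0.1, no filter, quantile scaling, a replicate block, a fit within the g or c set and leaving out each library. For the c set from day 3 to day 6 a further fit used day means and the library name prefix, read as data set, without the labels. The authors' tables of ratios and q-values were not used.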

Additional observations from a re-analysis of the deposited data

Results flagged for a closer look

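Every value here was singled out because a test of the difference itself found that the same step of culture differed between the labels gKO and gWT (limma, adjusted p under 0.05). For the step from day 0 to day 3, as log2 change under gKO minus log2 change under gWT, the proton pump V0 genes gave 0.43 for Atp6v0a1, -0.20 for Atp6v0a2, 2.09 for Tcirg1, 1.47 for Atp6v0b, 0.61 for Atp6v0c, 0.79 for Atp6v0d1, 2.97 for Atp6v0d2 and 1.25 for Atp6v0e. The V1 genes gave 1.85 for Atp6v1a, 1.86 for Atp6v1b2, 0.84 for Atp6v1c1, 1.78 for Atp6v1d, 1.64 for Atp6v1e1, 1.53 for Atp6v1f, 1.11 for Atp6v1g1 and 0.82 for Atp6v1h, and the accessory genes 1.60 for Atp6ap1 and 1.01 for Atp6ap2. Among the genes of acid supply and ion balance the values were 2.45 for Clcn7, 1.21 for Ostm1, 2.49 for Car2 and 1.33 for Slc4a2. The trafficking and lysosome genes gave 2.28 for Plekhm1, 2.27 for Snx10, 0.43 for Lamp1, 0.70 for Lamp2, 1.13 for Mcoln1, 0.75 for Tfeb and 0.64 for Rab7.

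For the step from day 3 to day 6 the same difference was 0.23 for Atp6v0a2, -1.35 for Tcirg1, -0.73 for Atp6v0b, -0.34 for Atp6v0c, -0.44 for Atp6v0d1, -2.02 for Atp6v0d2 and -0.99 for Atp6v0e among the V0 genes. In V1 it was -1.41 for Atp6v1a, -1.59 for Atp6v1b2, -0.89 for Atp6v1c1, -1.71 for Atp6v1d, -1.81 for Atp6v1e1, -0.67 for Atp6v1f, -0.48 for Atp6v1g1 and -0.98 for Atp6v1h, with -0.90 for Atp6ap1 and -1.12 for Atp6ap2. The acid secretion genes gave -1.44 for Clcn7, -1.05 for Ostm1, -2.47 for Car2 and -0.75 for Slc4a2, and the others -0.93 for Plekhm1, -2.12 for Snx10, 0.62 for Lamp1, -0.20 for Lamp2, -0.30 for Mcoln1, -0.62 for Tfeb and -0.22 for Rab7. In this step the call of Atp6v0c was lost, at -0.26 to -0.33, without any of 7 libraries (gWT day 3 replicates 1 and 2, gWT day 6 replicates 1 and 2, gKO day 3 replicate 3, gKO day 6 replicates 1 and 3), and that of Lamp2, at -0.15 to -0.19, without gKO day 3 replicate 2, gKO day 6 replicate 1 or 3 or gWT day 6 replicate 2. Both steps share the day 3 libraries, so a high day 3 level under gKO enters the first with a plus sign and the second with a minus sign.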

How the results depend on the processing

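Of 399 called changes of single genes, 398 kept their direction and call with a pseudocount of 0.1, 383 with no filter on low values, 393 with a fit within the g or c set and 369 under quantile scaling, where 26 lost the call and 4 changed sign: Lamp2 from day 3 to day 6 in gWT (0.063), Atp6v0a2 for gKO minus gWT at day 0 (-0.10), Atp6v0a2 in the difference of the first steps (0.21) and Rab7 from day 0 to day 3 in cWT (-0.088). The uncalled difference of Atp6v0d2 between gKO day 3 and gWT day 6 also changed sign (0.073). Leaving out single libraries ended 41 calls, none of a change above 0.336 (log2), and turned none round. Of 412 values of 34 member counts under the alternatives, 402 stayed within 1.5 times. The others began with the c set from day 3 to day 6. There the fit of day means and name prefix, without the labels, called 9 (26 in the reported fit). In the same comparison 1 was past 2-fold with a pseudocount of 0.1, with quantile scaling and, at most, with a library left out (0 to 1). Next was the count past 2-fold for cKO minus cWT at day 3 (4 to 7 with a library left out). The last was gKO day 3 minus gWT day 6 (2 to 6). The cause was not tested. Adding 1 RPKM to every paralog moved the Atp6v0d2 share to 5.63% (gKO), 3.66% (cWT) and 6.38% (cKO) at day 0. By its construction the same addition drew the Tcirg1 share to 91.1% and 96.1% in gWT at days 3 and 6, 68.3%, 96.5% and 96.1% in gKO at days 0, 3 and 6, 93.0% and 93.0% in cWT at days 3 and 6, and 65.1% and 94.6% in cKO at days 0 and 3. The Atp6v0a1 share became 2.04% and 1.79% at day 6 in gWT and gKO and 2.81% in cWT at day 3.

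Over each set as a whole the replicate numbers did not meet the rule for pairing, a correlation above 0.1 in every pair: of 45 pairs of equal number 16 correlated above 0.1 in the g set (-0.2 to 0.501) and 7 in the c set (-0.673 to 0.464), and 29 and 17 of 45 correlated best with their own number, a hint from the data and not the design. With the replicate number as a block 395 of 399 calls held, with none lost in the comparisons where the rule was met, the lost ones being Atp6v0a2 (limma adjusted p = 0.0552) and Atp6v1c1 (0.0511) for gKO minus gWT at day 0, Plekhm1 at day 6 (0.0537) and Atp6v1a for cKO minus cWT at day 0 (0.0549). The block moved 25 called members to 23 for gKO minus gWT at day 0, 16 to 17 for gKO from day 3 to day 6, 14 to 13 for gKO minus gWT at day 6 and 21 to 20 for cKO minus cWT at day 0. Depth per gene is unknown, so low levels such as Car2 at day 0 carry an error that these data do not show.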
